A study of Mus musculus with 12 samples.

Results

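The genes described here encode the Golgi enzymes that build O-linked sugar chains and cap sugar chains with fucose or sialic acid. They were taken from the deposited gene tables by symbol, as every protein-coding gene of the Galnt, C1galt1, B3gnt, Gcnt, Fut, St3gal, St6gal, St6galnac and St8sia families, which gave 62 of 38087 genes. The symbol pattern itself used no measured value. The set was still chosen with earlier results of these data known, and St6galnac4 was named for inclusion with its result already known. The symbol rule is wider than O-glycans. Fut8 acts on N-glycans, B3gnt5, St3gal5 and St8sia1 act on glycolipids, and the gene listed as B3gnt1 (named B4gat1 in GENCODE M21) acts on the O-mannose chains of dystroglycan.

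The libraries were messenger RNA of mouse colonic mucosa, 6 of the Sgo1-/+ genotype and 6 of wild type. Sgo1-/+ mice carry 1 altered copy of the gene for shugoshin 1, which protects the cohesion of sister chromatids at the centromere, and the series was set up to ask how unstable chromosome segregation affects the colon. Mice of both genotypes had been treated with azoxymethane, a colon carcinogen, at 4 mg/kg 2 times a week from 8 to 12 weeks of age, and their tissue was taken at 9 months. All 12 libraries thus came from carcinogen-treated mice. The labels do not say that each library came from its own mouse, so a p-value here reflects only how much these samples vary.

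Goblet cells and absorptive colonocytes cover the colon with mucins, whose serine and threonine residues are densely coated with O-glycans. A GalNAc transferase adds the first sugar, C1galt1 or B3gnt6 adds the second to form core 1 or core 3, and Gcnt enzymes add a branch. B3gnt enzymes lengthen the chains, and fucosyl- and sialyltransferases cap them. Sialyl caps are named for the bond formed, alpha-2,3 by St3gal enzymes, alpha-2,6 by St6gal and St6galnac enzymes, and alpha-2,8 by St8sia enzymes.

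Library depth ran from 5414150 to 9936818 counts in genes. Levels are given as CPM, counts per 1000000 after scaling by trimmed mean of M-values over the genes tested, as mean ± SD of 6 libraries per genotype. The tissue label was matched by high Muc2, the main secreted mucin of the colon (5829 ± 2722 CPM in Sgo1-/+ and 5138 ± 1436 CPM in wild type), and by Epcam, an epithelial adhesion molecule (1208 ± 184 CPM in Sgo1-/+ and 1212 ± 196 CPM in wild type). The transcript of the altered gene, listed as Sgol1, was at 2.33 ± 0.41 CPM in Sgo1-/+ and 3.65 ± 1.79 CPM in wild type (log2 change -0.67 ± 0.32, SE; edgeR adjusted p = 0.551). Genes resembling mitochondrial transcripts (Gm13340, Gm13341 and Gm11410) took 37.7% of counts in Sgo1-/+ replicate 3 and 38.8% and 37.4% in wild type replicates 3 and 5, against 10.5% to 22.3% in the other 9 libraries. Replicates 5 and 6 of Sgo1-/+ and replicates 1 and 6 of wild type carry a suffix in the header of their value columns that the sources used here do not explain.

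Of the 62 genes, 41 had enough counts to be tested. The other 21 were at a mean of at most 1.66 CPM, and 15 of them were under 1 CPM in both genotypes. None of the 41 passed an adjusted p of 0.05 in edgeR's quasi-likelihood test, where 0.0% of all 13889 genes passed, and their adjusted p-values ran from 0.443 to 0.995. At an unadjusted p under 0.05 there were 5, which is 12.2% of those tested, beside 9.04% of all genes. St6galnac4, B3gnt5, B3gnt7 and Fut8 were higher in Sgo1-/+, where 4.31% of all genes were called in that direction, and Gcnt3 was lower, where 4.73% of all genes were. The log2 change was positive for 24 and negative for 17, so that 58.5% were positive beside 49.0% of all genes, and the median log2 change was 0.06 beside -0.01 over all genes. Scaling by total counts alone, which moved the median of all genes to 0.31, gave a median of 0.37 with 36 of 41 members positive. On that scaling 7 members were higher and 0 lower at an unadjusted p under 0.05. The share of all genes called there is not given, so these counts cannot be separated from the shift of all genes. With the mitochondrial-like share added to the model 17 members were positive and the median was -0.09. The median and percent positive of all genes are not given for that model, so this drop cannot be assigned to the members. St6galnac4 was the 1 member whose libraries did not overlap between the genotypes, a pattern with higher values in Sgo1-/+ that 0.223% of all genes showed. DESeq2 called St6galnac4 and no other member at an adjusted p of 0.05, where it called 0.216% of all genes. Because St6galnac4 was named with its result in these data known, neither share measures how unusual that result is. These are bulk tissue values, in which fewer cells of a type and less RNA per cell cannot be told apart.

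**Figure D1:**
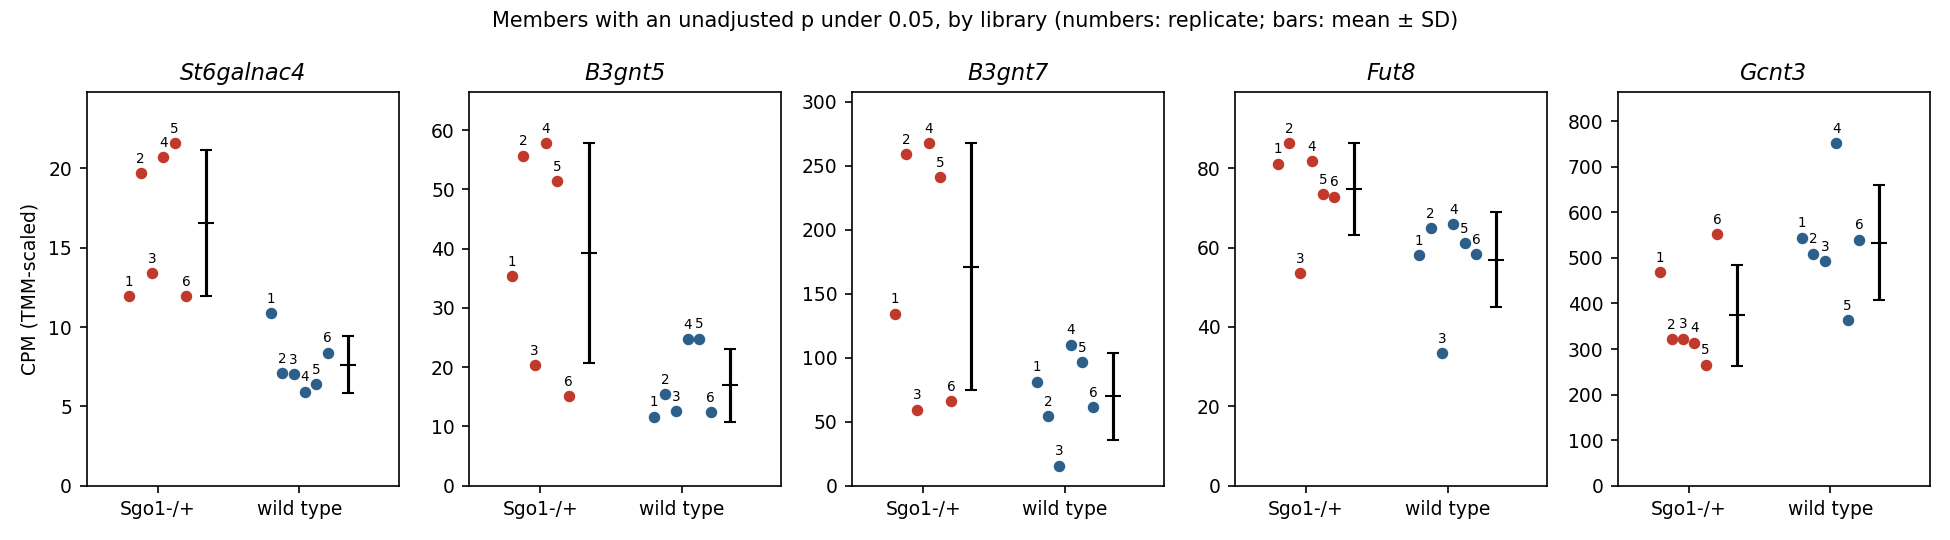
CPM of the 5 members with an unadjusted p under 0.05, with Sgo1-/+ libraries left and wild type libraries right in each panel. Points are libraries with their replicate number and black bars are mean ± SD of 6 libraries; the genotypes are apart for St6galnac4 and overlap for B3gnt5, B3gnt7, Fut8 and Gcnt3.

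Promoters are shown for the 3 of those 5 genes with a log2 change above 1, which carried the largest differences of that group. Each is the 250 bases before the RefSeq start site on the strand of the gene, from build GRCm38.p6, with capitals marking the GC box GGGCGG or its other strand CCGCCC, the letters that Sp1-type factors bind. They lie at chr2:32586828-32587077 for St6galnac4, chr16:19759984-19760233 for B3gnt5 and chr1:86302971-86303220 for B3gnt7, all on the plus strand.
St6galnac4: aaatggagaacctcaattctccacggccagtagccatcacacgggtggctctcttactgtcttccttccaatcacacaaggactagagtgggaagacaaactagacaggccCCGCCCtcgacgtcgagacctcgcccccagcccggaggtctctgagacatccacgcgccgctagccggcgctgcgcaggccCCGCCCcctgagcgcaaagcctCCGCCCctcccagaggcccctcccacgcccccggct
B3gnt5: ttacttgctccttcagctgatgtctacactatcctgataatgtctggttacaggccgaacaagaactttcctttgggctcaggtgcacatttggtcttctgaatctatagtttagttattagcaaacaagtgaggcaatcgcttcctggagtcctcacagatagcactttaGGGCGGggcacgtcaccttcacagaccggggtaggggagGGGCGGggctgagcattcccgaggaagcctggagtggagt
B3gnt7: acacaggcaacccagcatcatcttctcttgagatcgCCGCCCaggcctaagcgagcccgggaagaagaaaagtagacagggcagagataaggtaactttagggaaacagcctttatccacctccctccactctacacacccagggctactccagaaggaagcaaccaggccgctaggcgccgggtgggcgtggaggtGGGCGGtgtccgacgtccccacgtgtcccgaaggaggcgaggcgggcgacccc
The window of St6galnac4 held 3 GC boxes with 65.2% G and C, that of B3gnt7 held 2 with 61.6%, and that of B3gnt5 held 2 with 51.2%, beside a median of 52.4% over all windows. A GC box was present in 32.7% of the 32851 windows of the table, and in 30 of the 60 windows that matched a member by symbol (43 members matched). Neither TTTATG, a core of CDX and posterior HOX sites, nor TATAAA, the TATA box, occurred in the 3 windows on either strand. They occurred in 10.8% and 12.4% of all windows. Such matches describe letters and not bound sites.

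The family that starts O-glycans had 18 GalNAc transferase genes, of which 12 were tested. None passed in edgeR, 7 had a positive log2 change, against 10 on total counts alone and 3 with the mitochondrial-like share in the model, and the median was 0.05. The most abundant by CPM was Galnt4, whose enzyme prefers peptides that already carry GalNAc, at 190 ± 35.4 CPM in Sgo1-/+ and 198 ± 54.4 CPM in wild type (log2 change -0.06 ± 0.19, SE, and 0.24 on total counts alone). Sgo1-/+ libraries spanned 130 to 233 CPM with a median of 189.8 CPM, and overlapped the wild type span of 137 to 265 CPM with a median of 203 CPM. Galnt4 shares 5111 bases with Poc1b on the same strand, a centriole gene at a mean of 27.6 CPM. Galnt7, another follow-up enzyme, was at 174 ± 33.5 CPM in Sgo1-/+ and 162 ± 23.9 CPM in wild type. Galnt6, Galnt12 and Galnt10 had mean levels between 81.2 and 114 CPM in Sgo1-/+ and between 84.3 and 128 CPM in wild type. Galnt11 had the smallest p of the family. It was at 11.8 to 21.8 CPM in Sgo1-/+ libraries, with a median of 14.2, and at 8.29 to 15.6 CPM in wild type libraries, with a median of 11.7 (log2 change 0.36 ± 0.19, SE; edgeR unadjusted p = 0.0763, adjusted p = 0.570). Every Sgo1-/+ library was above the wild type median, and 1 was above all wild type libraries.

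The largest log2 changes of the family belonged to Galntl6 and Galnt13, picked out after their values were seen. Galntl6, a GalNAc transferase-like gene on chromosome 8, was at 7.23, 0.103, 165, 48.2, 0 and 0.0918 CPM in Sgo1-/+ replicates 1 to 6 and at 108, 24.2, 99.3, 45.0, 355 and 36.2 CPM in wild type replicates 1 to 6. It was nearly absent from 3 Sgo1-/+ libraries and present in every wild type library, and the groups overlapped through Sgo1-/+ replicates 3 and 4. Its log2 change of -1.63 had an SE of 1.27 (edgeR unadjusted p = 0.221, adjusted p = 0.710). The highest libraries were among the 3 rich in mitochondrial-like counts, Sgo1-/+ replicate 3 and wild type replicate 5; the part of that share in the difference was not tested for this gene. Galnt13, an enzyme best known from nervous tissue, was at 0.396 to 6.24 CPM in Sgo1-/+ and at 1.44 to 14.7 CPM in wild type, with a median of 1.40 CPM in Sgo1-/+ and 2.88 CPM in wild type (log2 change -1.46 ± 0.77, SE). Wild type replicates 1 and 5, at 13.3 and 14.7 CPM, stood above all others.

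The genes that form core 1 and core 3 did not pass the test. C1galt1, the core 1 synthase, was at 175 ± 29.4 CPM in Sgo1-/+ and 164 ± 32.1 CPM in wild type (log2 change 0.09 ± 0.15, SE; edgeR adjusted p = 0.857). Its chaperone C1galt1c1, also called Cosmc, was at 37.4 ± 15.6 CPM in Sgo1-/+ and 34.9 ± 14.4 CPM in wild type. B3gnt6, the core 3 synthase, varied more. It was at 35.0, 5.99, 5.54, 11.8, 18.4 and 27.3 CPM in Sgo1-/+ replicates 1 to 6 and at 12.1, 21.5, 4.52, 13.6, 8.00 and 12.4 CPM in wild type replicates 1 to 6. Sgo1-/+ replicates 1 and 6 were above all wild type libraries, and the other 4 were within the wild type span (log2 change 0.52 ± 0.45, SE; edgeR adjusted p = 0.736). The log2 change became -0.08 for C1galt1 and -0.12 for B3gnt6 once the mitochondrial-like share entered the model. That of B3gnt6 was 0.20 when Sgo1-/+ replicate 1 was left out, and the difference in mean log2 CPM was 0.096 within the libraries lacking the column suffix and 0.86 within those carrying it.

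The branching enzymes were the family in which no tested gene had a positive log2 change, with 4 of 5 genes tested and a median of -0.27, although 2 of the 4 were positive on total counts alone, with a median of 0.04. Gcnt3 is a mucin-type enzyme that makes core 2 and core 4 branches. Of the 61 members with an exon length, it had the highest mean over the 12 libraries when scaled per length. It lies on chromosome 9 at 70031496 to 70038088 in mm10. Its level was 468, 322, 323, 314, 266 and 552 CPM in Sgo1-/+ replicates 1 to 6 and 544, 509, 493, 752, 363 and 540 CPM in wild type replicates 1 to 6. Sgo1-/+ replicates 2 to 5 were below every wild type library, and Sgo1-/+ replicates 1 and 6 were within the wild type span. The means were 374 ± 111 CPM in Sgo1-/+ and 534 ± 126 CPM in wild type (log2 change -0.51 ± 0.20, SE; edgeR unadjusted p = 0.0247, adjusted p = 0.530).

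Gcnt3 was ordered over the libraries much like the summed CPM of 14 absorptive colonocyte markers, which ran from 12640 to 19950 CPM in Sgo1-/+ and from 13430 to 24400 CPM in wild type. Of those 14 markers 12 had a negative log2 change. In edgeR 2 were lower at an unadjusted p under 0.05, beside 4.73% of all genes. With these absorptive markers as a covariate, an alternative added after the data were seen, the log2 change of Gcnt3 was -0.29. Leaving out single libraries gave log2 changes of -0.64 to -0.39, and scaling by total counts alone gave -0.19. Gcnt2, which makes the I branch of blood group chains, had a log2 change of -0.43 ± 0.25 (SE). Gcnt1 and Gcnt4, the other core 2 enzymes, had log2 changes of -0.10 and -0.12. Summed over the family, levels were 453 ± 107 CPM in Sgo1-/+ and 624 ± 129 CPM in wild type, a sum made up mostly of Gcnt3.

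Chain extension held the largest positive log2 changes among members, in B3gnt7 and B3gnt5, while the remaining tested genes of that family were between -0.29 and 0.17. On total counts alone all 6 tested were positive. B3gnt7, which lengthens keratan sulfate-type chains, lies on chromosome 1 at 86303221 to 86307303 in mm10. It was at 134, 259, 59.4, 268, 241 and 65.8 CPM in Sgo1-/+ replicates 1 to 6 and at 81.3, 54.5, 15.6, 110, 96.3 and 61.3 CPM in wild type replicates 1 to 6. Sgo1-/+ replicates 1, 2, 4 and 5 were above all wild type libraries, and replicates 3 and 6 were below the wild type median of 71.3 CPM. The means were 171 ± 96.8 CPM in Sgo1-/+ and 69.9 ± 33.8 CPM in wild type (log2 change 1.29 ± 0.46, SE; edgeR unadjusted p = 0.0139, adjusted p = 0.524).

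B3gnt5, which begins the lacto-series of glycolipids, lies on chromosome 16 at 19760208 to 19772753. It was at 35.3, 55.6, 20.3, 57.8, 51.4 and 15.1 CPM in Sgo1-/+ replicates 1 to 6 and at 11.6, 15.4, 12.6, 24.7, 24.8 and 12.4 CPM in wild type replicates 1 to 6. The same 4 Sgo1-/+ libraries as for B3gnt7 were above all wild type libraries, and all 6 were above the wild type median. The means were 39.2 ± 18.5 CPM in Sgo1-/+ and 16.9 ± 6.19 CPM in wild type (log2 change 1.22 ± 0.34, SE; edgeR unadjusted p = 0.00283, adjusted p = 0.491; DESeq2 adjusted p = 0.0818). B3gnt3, the extender of core 1 chains and the most abundant of the family by CPM, was at 177 ± 15.9 CPM in Sgo1-/+ and 179 ± 29.5 CPM in wild type (log2 change -0.02 ± 0.12, SE), and its log2 change was 0.15 with the absorptive markers as a covariate and 0.28 on total counts alone. B3gnt2, which extends polylactosamine chains, was at 30.0 ± 5.65 CPM in Sgo1-/+ and 31.7 ± 4.74 CPM in wild type. It shares 26215 bases with Commd1 on the same strand, which was at a mean of 67.9 CPM.

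B3gnt5 and B3gnt7 were high in the libraries that were high in markers of the distal colon. The summed CPM of Hoxb13, Hoxa13, Hoxd13, Hoxd12 and Insl5 was 113, 332, 82.0, 246, 252 and 51.8 in Sgo1-/+ replicates 1 to 6 and 93.9, 56.8, 46.5, 101, 135 and 111 in wild type replicates 1 to 6. Sgo1-/+ replicates 2, 4 and 5 stood above the other 9 libraries for this sum and for both genes. The same libraries were highest for Hoxb13 and Insl5 taken singly, but not for Hoxa13. Hoxa13 was at 39.7 CPM in Sgo1-/+ replicate 1 and 28.6 CPM in replicate 3, beside 27.3 CPM in replicate 5. Of the 6 markers listed 5 were found and 4 were tested. All 4 had a positive log2 change, beside 49.0% of all genes. In edgeR 2 were higher at an unadjusted p under 0.05, beside 4.31% of all genes. With the distal markers as a covariate, added after the data were seen, the log2 change was 0.46 for B3gnt7 and 0.62 for B3gnt5. In that fit B3gnt5 and St6galnac4 were the 2 members higher at an unadjusted p under 0.05, each with an edgeR adjusted p of 0.813. The share of all genes higher at that p is not given for that fit, so this count cannot be assigned to the members.

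**Figure D2:**
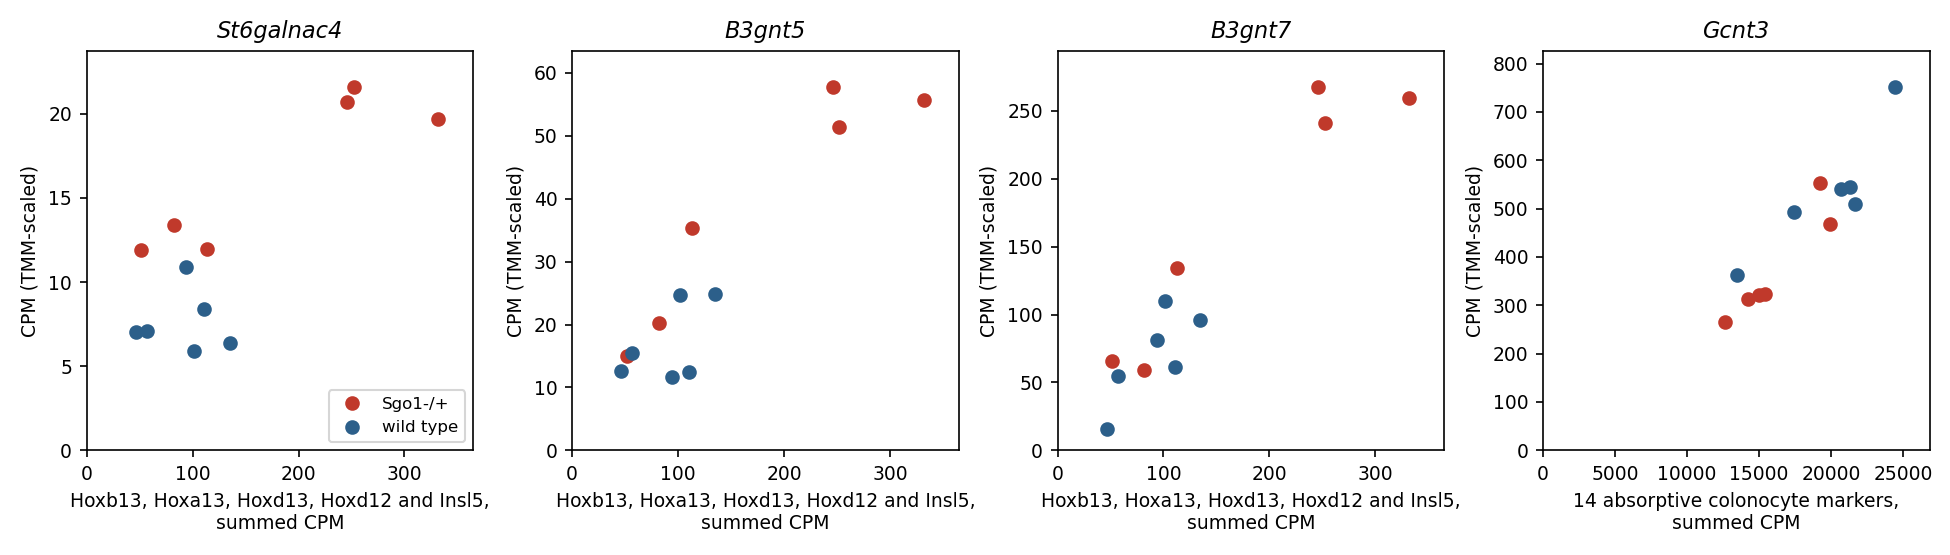
CPM of St6galnac4, B3gnt5 and B3gnt7 against the summed CPM of 5 distal colon markers, and of Gcnt3 against that of 14 absorptive colonocyte markers, 1 point per library, Sgo1-/+ in red and wild type in blue. The 3 Sgo1-/+ libraries at 246, 252 and 332 CPM of distal markers have the highest levels of the first 3 genes, and Gcnt3 is highest in the wild type library at 24400 CPM of absorptive markers.

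The fucosyltransferases had 5 of 8 genes tested, 4 with a positive log2 change, against 5 on total counts alone and 2 with the distal markers as a covariate, and a median of 0.39. Fut8, which adds core fucose to N-glycans, lies on chromosome 12 at 77238104 to 77476338. It was at 81.2, 86.3, 53.6, 81.7, 73.5 and 72.9 CPM in Sgo1-/+ replicates 1 to 6 and at 58.1, 64.9, 33.4, 65.9, 61.1 and 58.3 CPM in wild type replicates 1 to 6. In each genotype replicate 3, a library rich in mitochondrial-like counts, was the lowest, and the other 5 Sgo1-/+ libraries were above all wild type libraries. The means were 74.9 ± 11.6 CPM in Sgo1-/+ and 57.0 ± 12.0 CPM in wild type (log2 change 0.39 ± 0.16, SE; edgeR unadjusted p = 0.0281, adjusted p = 0.530). Without the 3 libraries richest in such counts, left out after the data were seen, the log2 change was 0.37. With their share as a covariate it was 0.24, and with the distal markers as a covariate 0.25.

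Fut2, which makes the H antigen on mucins and was the most abundant fucosyltransferase gene by CPM, was at 127 ± 25.2 CPM in Sgo1-/+ and 154 ± 58.5 CPM in wild type (log2 change -0.27 ± 0.21, SE, and 0.04 on total counts alone; edgeR adjusted p = 0.704). Wild type replicate 4 alone was at 269 CPM, and the other wild type libraries were at 113 to 159 CPM, beside 99.98 to 152 CPM in Sgo1-/+. Without wild type replicate 4 the log2 change was -0.04. Fut4 and Fut9, which make the Lewis x group and were picked out after their values were seen, had log2 changes of 0.66 ± 0.37 and 0.61 ± 0.57 (SE). Fut9 had 29.2, 25.3 and 20.0 CPM in Sgo1-/+ replicates 2, 4 and 5, the libraries high in distal markers, and 2.94 to 7.39 CPM in the other Sgo1-/+ libraries, against 2.76 to 20.3 CPM in wild type. Fut1, Fut7 and Fut10 had too few counts to be tested.

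**Figure D3:**
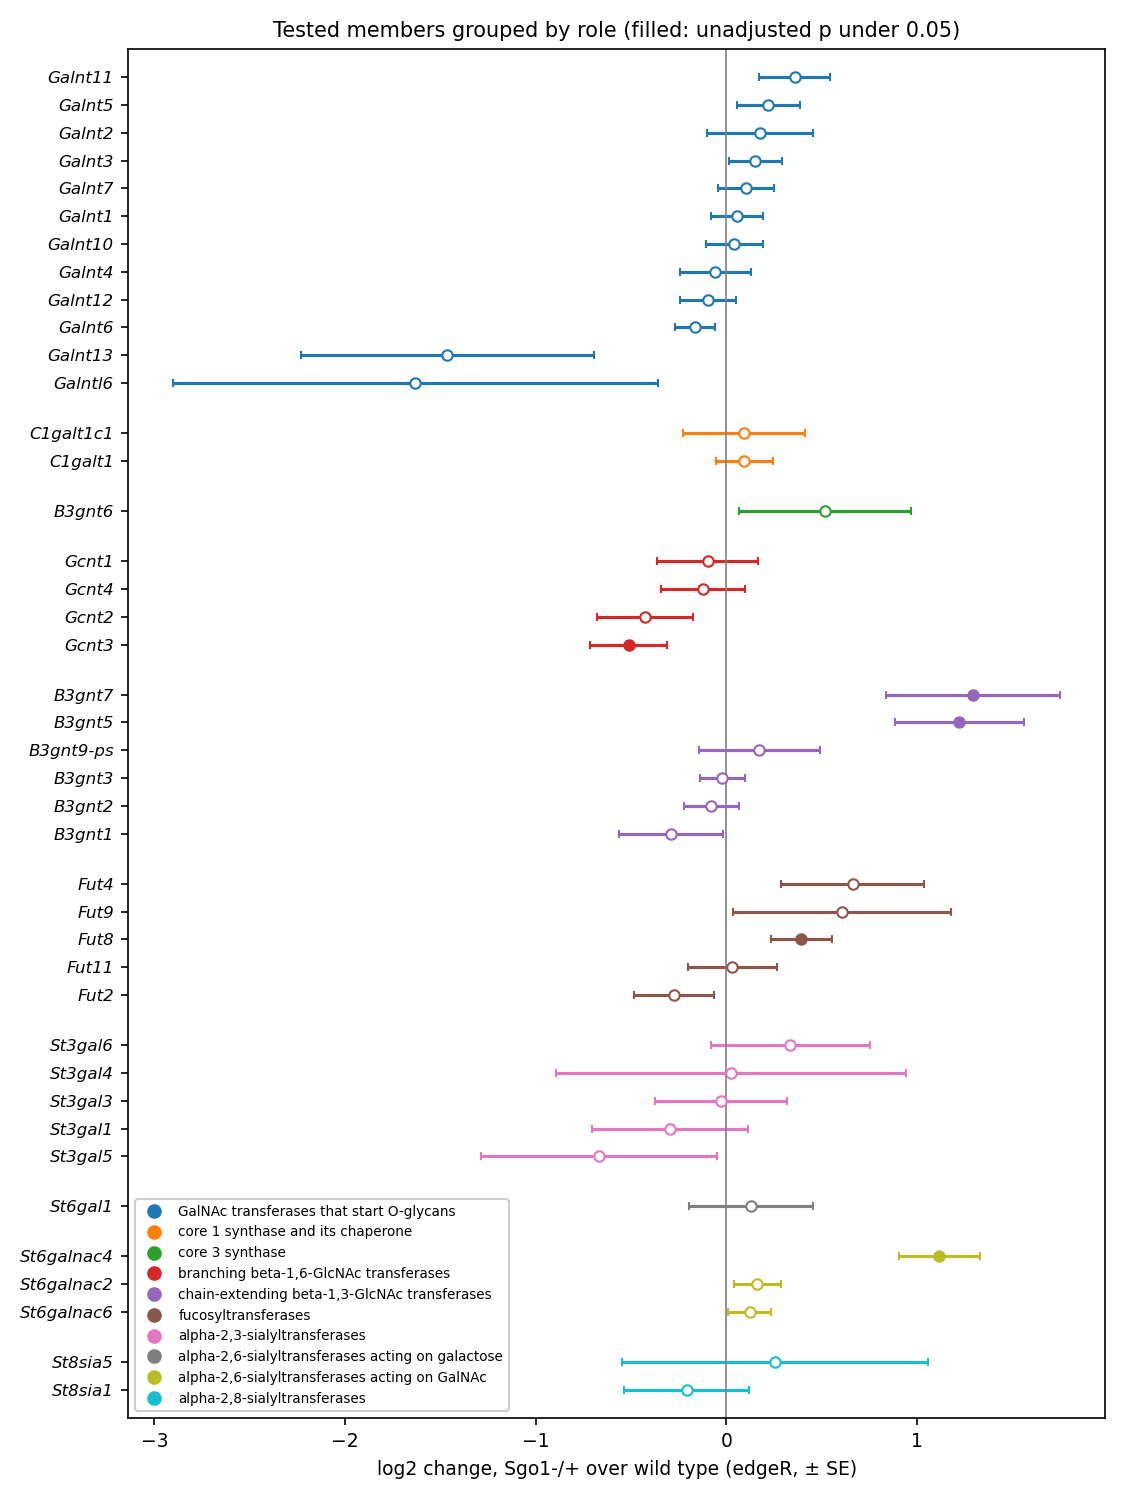
Log2 change of Sgo1-/+ over wild type for the 41 tested members, with edgeR standard errors as bars, grouped and coloured by role. Filled points have an unadjusted p under 0.05; B3gnt7, B3gnt5 and St6galnac4 lie beyond 1, Gcnt3 at -0.51 is the filled point left of 0, and Galntl6 and Galnt13 lie below -1 with wide bars.

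In the main fit the alpha-2,3-sialyltransferases differed between libraries more than between genotypes. None of the 5 tested genes passed in edgeR, and their adjusted p-values ran from 0.749 to 0.995. The log2 change was positive for 2 of the 5, with a median of -0.03. On total counts alone 4 were positive, with a median of 0.30. With the mitochondrial-like share in the model 4 were positive, with a median of 0.43. St3gal4, which caps galactose on N- and O-glycans, was at 1.25, 249.6, 345, 106, 223 and 64.9 CPM in Sgo1-/+ replicates 1 to 6 and at 212, 105, 329, 1.44, 188 and 137 CPM in wild type replicates 1 to 6. Sgo1-/+ replicate 1 and wild type replicate 4 thus held almost none of a transcript that was between 64.9 and 345 CPM elsewhere, and the highest level was 275 times the lowest. Its log2 change was 0.02 ± 0.92 (SE), and leaving out Sgo1-/+ replicate 1 gave 0.30, while leaving out wild type replicate 4 gave -0.24. The opposite-strand gene 4930581F22Rik, which shares 83 bases with St3gal4, was lowest in the same libraries, at 0.579 CPM in Sgo1-/+ replicate 1 and 0.289 CPM in wild type replicate 4. The next gene, Dcps, an mRNA decapping enzyme, had 3.95 CPM in Sgo1-/+ replicate 1, the lowest of its genotype, and 5.34 CPM in wild type replicate 4, beside means of 6.59 CPM in Sgo1-/+ and 5.39 CPM in wild type. The sources used here do not say whether counting used strand, so reads within the shared bases of St3gal4 and its antisense partner cannot be told apart.

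St3gal1, St3gal3 and St3gal6, shown by library after their values were seen, did not have that loss. St3gal6, which forms sialyl Lewis-type ends, was at 83.3, 184, 263, 129, 147 and 38.8 CPM in Sgo1-/+ replicates 1 to 6 and at 80.7, 54.2, 196, 70.2, 180 and 89.2 CPM in wild type replicates 1 to 6. St3gal3, which acts on type 1 chains, was at 69.8, 48.6, 124, 44.5, 50.3 and 37.3 CPM in Sgo1-/+ and at 47.6, 41.4, 130, 33.5, 71.2 and 57.4 CPM in wild type in the same order. For both genes the highest library of each genotype was replicate 3, and wild type replicate 5 was the next highest in wild type, which are the libraries rich in mitochondrial-like counts. St3gal1, which caps core 1, was also highest in wild type replicate 3, at 89.7 CPM, while Sgo1-/+ replicate 1 had 63.7 CPM and Sgo1-/+ replicate 3 had 60.7 CPM. St3gal5, the GM3 ganglioside synthase, had the smallest p of the family and few counts, with 1.46 ± 1.40 CPM in Sgo1-/+ and 2.38 ± 1.72 CPM in wild type (log2 change -0.67 ± 0.62, SE; edgeR adjusted p = 0.749). That value became -0.16 when wild type replicate 2 was left out and -1.29 when Sgo1-/+ replicate 6 was left out. The log2 changes of St3gal6, St3gal3 and St3gal1 were 0.34 ± 0.42, -0.03 ± 0.35 and -0.30 ± 0.41 (SE).

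**Figure D4:**
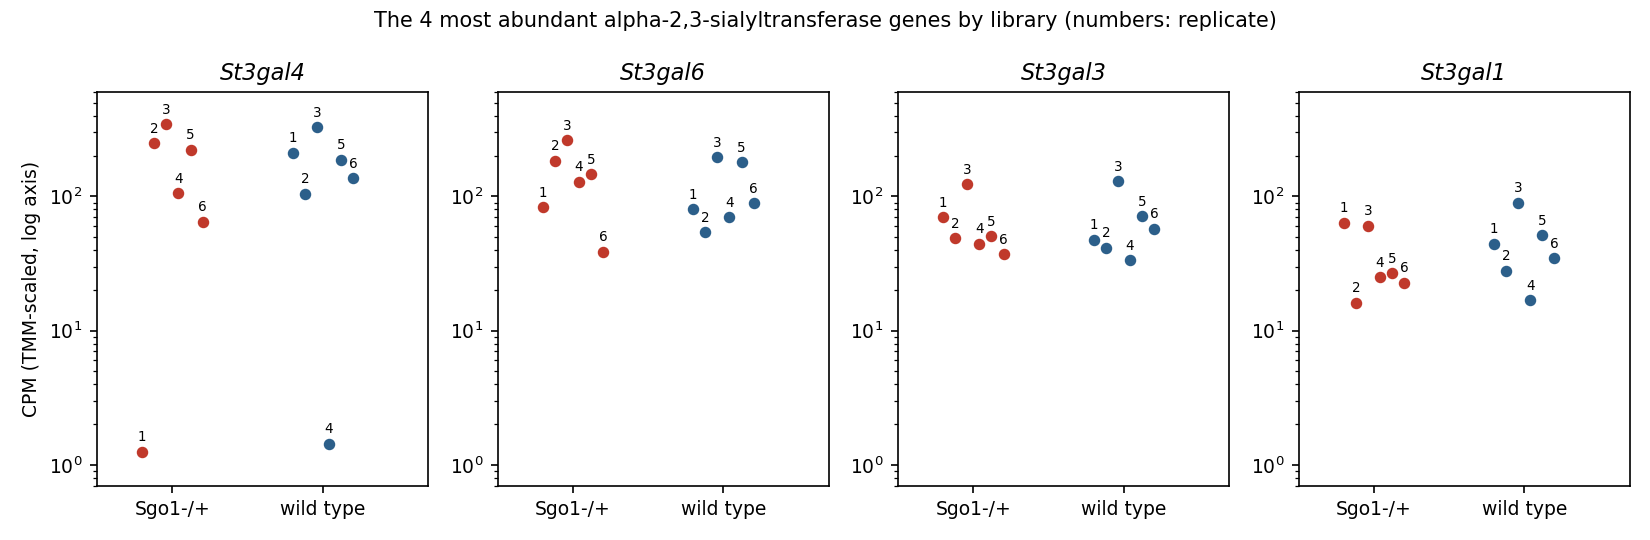
CPM on a log axis of St3gal4, St3gal6, St3gal3 and St3gal1 in each library, Sgo1-/+ left and wild type right, with replicate numbers. St3gal4 is at 1.25 CPM in Sgo1-/+ replicate 1 and 1.44 CPM in wild type replicate 4 and between 64.9 and 345 CPM in the other libraries, while the other 3 genes have no library that far down.

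Among the sialyltransferases that act on GalNAc, St6galnac4 had the smallest p of all members. Its enzyme adds sialic acid to the GalNAc of a core 1 chain that already carries an alpha-2,3-linked one, giving the disialyl-T structure. The gene lies on chromosome 2 at 32587095 to 32599698 in mm10 on the plus strand. It was at 12.0, 19.7, 13.4, 20.7, 21.6 and 11.9 CPM in Sgo1-/+ replicates 1 to 6 and at 10.9, 7.09, 7.04, 5.91, 6.40 and 8.37 CPM in wild type replicates 1 to 6. The lowest Sgo1-/+ library was just above the highest wild type library, and Sgo1-/+ replicates 2, 4 and 5 stood well above. The means were 16.6 ± 4.59 CPM in Sgo1-/+ and 7.62 ± 1.80 CPM in wild type, on 24.0 to 259 counts per library. The log2 change was 1.12 ± 0.21 (SE; edgeR unadjusted p = 1.28e-04, adjusted p = 0.443), while DESeq2 gave a log2 change of 1.11 and an adjusted p of 0.00542.

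Leaving out single libraries gave log2 changes of St6galnac4 between 1.04 and 1.26. With the distal colon markers as a covariate it was 0.85 and with the absorptive markers 0.90. The difference in mean log2 CPM was 1.25 within the 8 libraries without the column suffix and 0.74 within the 4 that carry it, where the lowest Sgo1-/+ library was at 11.9 CPM and the highest wild type library at 10.9 CPM. St6galnac4 ends 10 bases before St6galnac6 begins on the same strand. St6galnac6, which forms disialyl structures on glycolipids, had a mean of 356.1 CPM over all libraries, and the sources used here do not say how reads across that boundary were counted. St6galnac6 itself was at 371 ± 29.4 CPM in Sgo1-/+ and 341 ± 47.9 CPM in wild type (log2 change 0.12 ± 0.11, SE; edgeR adjusted p = 0.749).

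St6galnac2, which sialylates the GalNAc of core 1 and of unextended chains, was at 43.0 ± 5.81 CPM in Sgo1-/+ and 38.4 ± 5.79 CPM in wild type (log2 change 0.16 ± 0.12, SE). St6galnac1, the sialyl-Tn synthase known as the main enzyme of this kind in human goblet cells, was nearly silent here. It was at 0 to 0.240 CPM in Sgo1-/+ and at 0 to 0.754 CPM in wild type, with at most 3 counts in a library. St6galnac3 and St6galnac5 were at means of 0.424 and 0.189 CPM in Sgo1-/+ and 1.89 and 0.660 CPM in wild type, and were not tested.

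St6gal1, which sialylates N-glycans, was at 15.9 to 49.8 CPM in Sgo1-/+ libraries with a median of 39.8, and at 10.6 to 61.0 CPM in wild type libraries with a median of 31.5 (log2 change 0.13 ± 0.33, SE; edgeR adjusted p = 0.918). Replicate 3 was the lowest library in both genotypes. It became -0.29 once the mitochondrial-like share entered the model. Its paralog St6gal2 was at 0.338 ± 0.35 CPM in Sgo1-/+ and 1.13 ± 1.05 CPM in wild type and was not tested. Of the St8sia genes, which make polysialic acid and gangliosides, St8sia1 and St8sia5 were tested. St8sia1, the GD3 synthase, was at 2.81 ± 1.08 CPM in Sgo1-/+ and 3.28 ± 1.23 CPM in wild type (log2 change -0.21 ± 0.33, SE, and 0.14 on total counts alone; edgeR adjusted p = 0.855). St8sia5 was at 2.43 ± 2.12 CPM in Sgo1-/+ and 2.13 ± 2.31 CPM in wild type, and the remaining 4 were at most at 1.60 CPM in either genotype.

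Levels can be set against each other per kb of exon for 61 members, since the identifier of Galntl6 was not in GENCODE M21. Gcnt3 came first, at 87.0 CPM per kb in Sgo1-/+ and 124 CPM per kb in wild type, and St6galnac6 came next, at 77.1 CPM per kb in Sgo1-/+ and 70.8 CPM per kb in wild type. The levels of these neighbours overlapped between libraries. B3gnt3 and St3gal4 followed, at 57.9 and 56.4 CPM per kb in Sgo1-/+ and 58.7 and 55.5 CPM per kb in wild type. Galnt4, Galnt12, Galnt7 and Galnt6 lay between 29.5 and 37.4 CPM per kb in Sgo1-/+ and between 30.9 and 38.9 CPM per kb in wild type, with library ranges that overlapped each other. C1galt1 was at 28.8 CPM per kb in Sgo1-/+ and 26.9 CPM per kb in wild type, and B3gnt6 at 7.32 CPM per kb in Sgo1-/+ and 5.06 CPM per kb in wild type. The core 1 synthase was thus the more abundant transcript per length of the pair. B3gnt7 was at 41.4 ± 23.4 CPM per kb in Sgo1-/+, above the means of the 4 Galnt genes, and at 16.9 ± 8.17 CPM per kb in wild type, below them. With that SD the Sgo1-/+ order of means need not hold in each library. St6galnac4 was at 2.55 CPM per kb in Sgo1-/+ and 1.18 CPM per kb in wild type, ranked 32 of 61 by the mean of both.

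**Figure D5:**
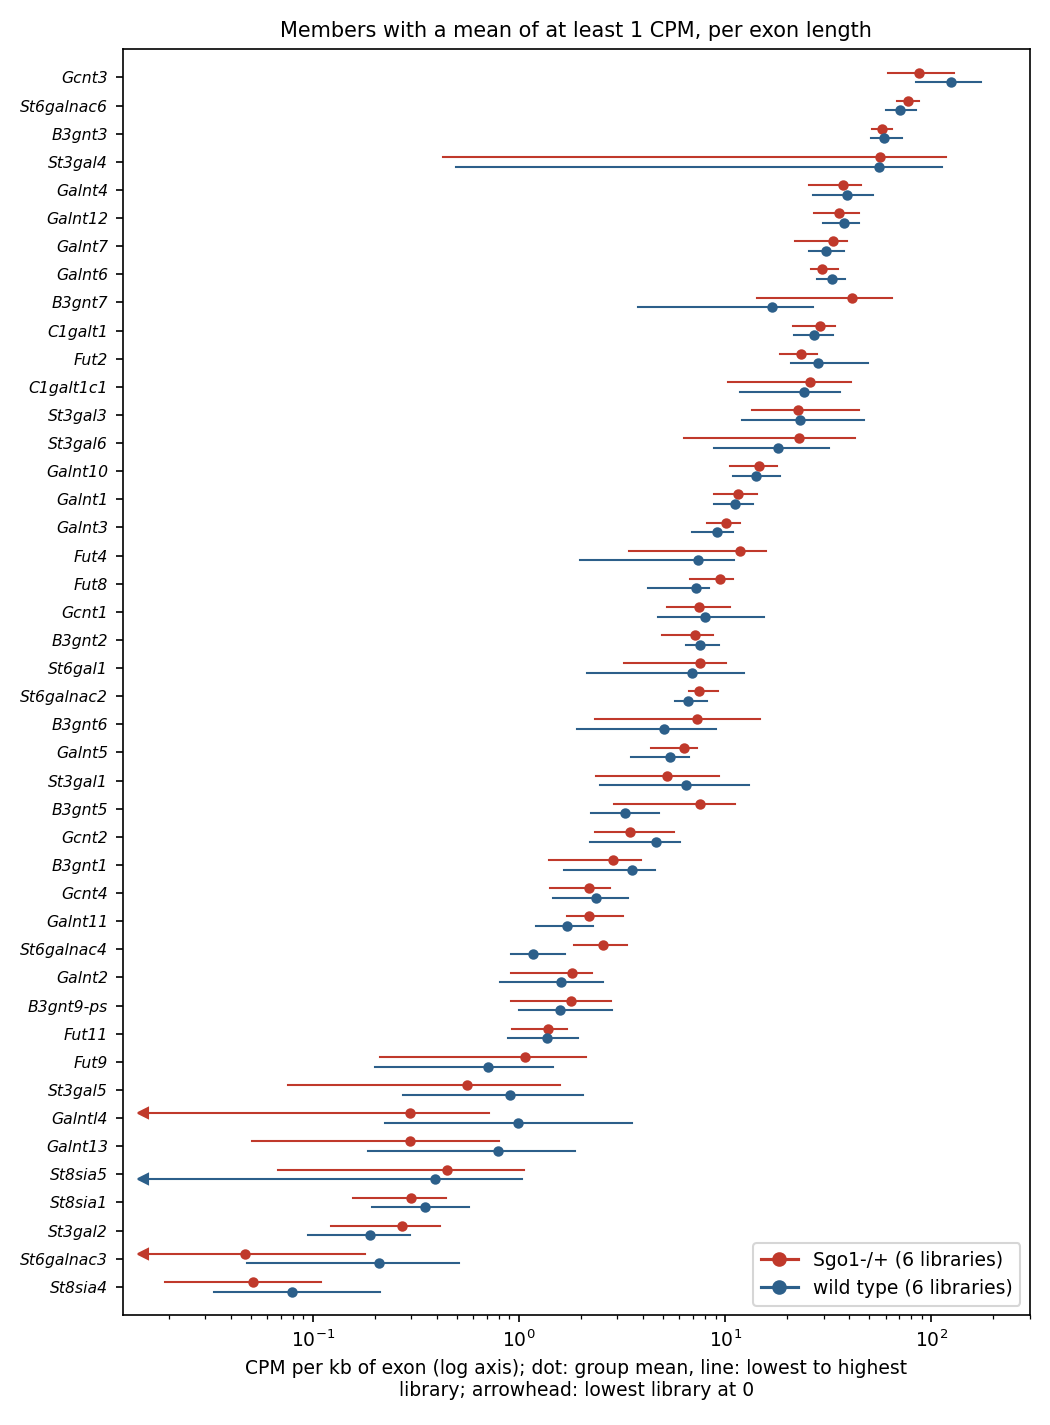
Level per exon length of members with a mean of at least 1 CPM, on a log axis, ordered from the highest at the top. Dots are genotype means and lines run from the lowest to the highest library, Sgo1-/+ above wild type in each pair, and an arrowhead marks a gene whose lowest library was at 0. St3gal4 has a line that reaches far below its mean in both genotypes, and St6galnac4 is the pair whose lines do not meet.

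The other genes of the pathway were described from lists of sugar donors, remaining O-glycan transferases, sialic acid removal and mucin backbones. Of 64 genes found 53 were tested, and 0 passed an adjusted p of 0.05 in edgeR, with 0 also in DESeq2. Their median log2 change was 0.11, 32 were positive and 21 negative, against 49 positive on total counts alone, and 3 were higher and 1 lower at an unadjusted p under 0.05, which is 7.55% of those tested beside 9.04% of all genes.

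All 20 genes of nucleotide sugar supply were tested, 15 with a positive log2 change, and all 20 on total counts alone. In edgeR 2 of the 20 had an unadjusted p under 0.05, beside 9.04% of all genes. Nans, the sialic acid synthase, was at 191 ± 42.4 CPM in Sgo1-/+ and 128 ± 25.4 CPM in wild type (log2 change 0.58 ± 0.17, SE; edgeR unadjusted p = 0.00478, adjusted p = 0.491). Gne, the rate-limiting enzyme of that route, was at 204.5 ± 42.3 CPM in Sgo1-/+ and 156 ± 27.4 CPM in wild type (log2 change 0.39 ± 0.17, SE; edgeR unadjusted p = 0.0344, adjusted p = 0.536). Slc35a3, a Golgi carrier of UDP-GlcNAc, was the most abundant of the list by CPM, at 221 ± 40.6 CPM in Sgo1-/+ and 187 ± 33.3 CPM in wild type.

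Of 26 further galactose, GalNAc and sulfate transferase genes 19 were tested and 9 had a positive log2 change, against 17 on total counts alone. Chst4, which sulfates GlcNAc, was at 35.1 ± 3.97 CPM in Sgo1-/+ and 28.1 ± 5.34 CPM in wild type (log2 change 0.32 ± 0.14, SE; edgeR unadjusted p = 0.0372, adjusted p = 0.536). The most abundant by CPM were B4galnt2, which makes the Sda antigen on sialylated chains, and B3galt5, which makes type 1 chains. B4galnt2 was at 424 ± 77.1 CPM in Sgo1-/+ and 522 ± 107 CPM in wild type, and B3galt5 was at 342 ± 69.3 CPM in Sgo1-/+ and 286 ± 82.1 CPM in wild type. Their log2 changes were -0.30 ± 0.17 and 0.26 ± 0.18 (SE), and neither had an unadjusted p under 0.05.

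Of 8 genes of sialic acid removal and modification 6 were tested, 3 with a positive log2 change and 5 on total counts alone. Neu1, the lysosomal sialidase, was at 207.5 ± 13.5 CPM in Sgo1-/+ and 258 ± 36.9 CPM in wild type (log2 change -0.31 ± 0.11, SE; edgeR unadjusted p = 0.0133, adjusted p = 0.524). Ctsa, the protein that protects Neu1 in the lysosome, was at 117 ± 7.60 CPM in Sgo1-/+ and 123 ± 9.40 CPM in wild type. Of 10 mucin genes 8 were tested, 5 with a positive log2 change, 7 on total counts alone, and 0 with an unadjusted p under 0.05 in edgeR or an adjusted p under 0.05 in DESeq2. Muc2 had a log2 change of 0.18 ± 0.30 (SE). Muc3, a membrane mucin of colonocytes, was at 2936 ± 373 CPM in Sgo1-/+ and 3423 ± 494 CPM in wild type (log2 change -0.22 ± 0.15, SE).

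Cell type marker lists were read beside these genes. Summed goblet cell markers ran from 12930 to 18190 CPM in Sgo1-/+ and from 10720 to 15450 CPM in wild type, with 12 of 15 positive and 0 at an unadjusted p under 0.05 in edgeR. Summed crypt base markers ran from 256 to 320.0 CPM in Sgo1-/+ and from 171 to 268 CPM in wild type, with all 9 tested positive and 5 of them at an unadjusted p under 0.05 in edgeR, where 4.31% of all genes were higher and 4.73% lower. Markers of B and plasma cells ran from 86.4 to 194 CPM in Sgo1-/+ and from 147 to 310 CPM in wild type, with 0 of 6 tested genes positive and 2 lower at an unadjusted p under 0.05 in edgeR. Those of T and NK cells ran from 11.7 to 19.9 CPM in Sgo1-/+ and from 14.9 to 30.9 CPM in wild type, with 1 of 6 positive and 2 lower at that p. Smooth muscle, fibroblast and endothelial sums were at most 47.0 CPM in Sgo1-/+ and 49.3 CPM in wild type, and 0 genes of these lists passed that p. Sums of macrophage, dendritic and granulocyte markers ran from 36.5 to 106 CPM in Sgo1-/+ and from 42.9 to 137 CPM in wild type, with 2 of 7 positive and 0 at that p. Tuft cell sums ran from 36.3 to 56.4 CPM in Sgo1-/+ and from 38.8 to 81.3 CPM in wild type, with 3 of 8 positive and 2 lower at that p. Adipocyte sums ran from 6.30 to 192 CPM in Sgo1-/+ and from 21.9 to 92.2 CPM in wild type, with 3 of 5 positive and 2 higher at that p. The part of these markers in the values of the glycosyltransferase genes was not tested, apart from the covariate fits given above.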

How the data were processed

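Per the labels' protocols, mRNA of colonic mucosa went into TruSeq libraries that were read on a MiSeq. The submitters' processing notes name build mm10 and DESeq, and the sources used here give no aligner, counting tool or strand setting. The authors deposited a raw column of expected counts, with 69.6% of non-zero values not whole on exact comparison, and a column of log2 values that was not used. Counts were rounded, and 505 rows that lack an Ensembl identifier (1.79% to 5.40% of counts) were left out.

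The main test was edgeR 4.0.16 under R 4.3.3 (glmQLFit and glmQLFTest, TMM factors, filterByExpr with minimum count 10 and minimum total 15), with Benjamini-Hochberg adjustment over 13889 genes and a threshold of 0.05. The SE is the absolute log2 change divided by the square root of F. Log2 CPM had a prior count of 2. DESeq2 1.42.0 and limma 3.58.1 (voom) were alternatives, as were other scalings, filters, covariates and left-out libraries. Exon lengths came from GENCODE M21 and promoters from RefSeq. Marker sums are sums of CPM.

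The members, lists and tests were chosen with earlier results of these data known. Genes named were St6galnac4, each member with an unadjusted p under 0.05, and in each role the most abundant and, where at least 3 were tested, the one with the smallest p. For other pathway genes they were those with an unadjusted p under 0.05 and the 2 most abundant of each list. Genes shown by library beyond that rule are marked in the text.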

Additional observations from a re-analysis of the deposited data

Results flagged for a closer look

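Each tested gene was examined in the 6 libraries of each genotype for a lowest or highest library set apart from the rest, by the gap to its nearest neighbour as a share of the whole range on the log2 CPM scale. That share was above Dixon's critical value for 6 values in 11 of 82 groups. Chance gives about 5% of groups where values are normal and groups independent. The genes were measured in the same 12 libraries, so the number of groups cannot be read against that rate. In all 11 the library set apart was the lowest on that scale. On unlogged CPM, a scale tried after the data were seen, the share was above the critical value in 7 groups, of which 6 had the highest library set apart and 1 the lowest.

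St3gal4 was set apart in both genotypes, with a share of 0.693 for Sgo1-/+ replicate 1 and 0.784 for wild type replicate 4. Sgo1-/+ replicate 3, rich in mitochondrial-like counts, was the lowest for Galnt2 (0.669, at 3.93 CPM), Galnt5 (0.630, at 19.4 CPM), Fut8 (0.645) and St6gal1 (0.631). Galnt2 shares 114332 bases with Gm20388 on the same strand, which was at a mean of 100.3 CPM. Gm20388 was at 163 CPM in Sgo1-/+ replicate 3, its highest library of that genotype. The part of read assignment between the 2 genes was not tested. Wild type replicate 3, also rich in such counts, was the lowest for Fut8 (0.815), Fut4 (0.702, at 8.04 CPM) and B3gnt7 (0.639). Wild type replicate 2 was the lowest for B3gnt1 (0.665, at 3.83 CPM) and Gcnt2 (0.633, at 15.5 CPM).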

How the results depend on the processing

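Over 14 settings other than leaving out single libraries, the 16 named members gave 224 log2 changes, of which 207 kept the direction and 17 reversed it. On total counts alone the reversed values were 0.24 for Galnt4, 0.28 for B3gnt3, 0.043 for Fut2 and 0.14 for St8sia1. With the mitochondrial-like share in the model they were -0.078 for C1galt1, -0.12 for B3gnt6, -0.29 for St6gal1 and 0.13 for St8sia1. With the absorptive markers as a covariate they were 0.15 for B3gnt3, 0.0050 for Fut2 and -0.74 for St3gal4. B3gnt3 was also at 0.0089 without a filter and 0.071 without the 4 libraries with the suffix, and St3gal4 at -0.11 in limma-voom. Galnt4 was at 0.027 and St3gal4 at -0.50 within the libraries with the suffix, and B3gnt3 at 0.074 within those lacking it. The causes were not tested.

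Leaving out single libraries reversed 14 of 192 values, with ranges of -0.14 to 0.059 for Galnt4, -0.058 to 0.046 for B3gnt3, -0.33 to 0.36 for St3gal4 and -0.05 to 0.38 for St6gal1. It left 0 members called at an adjusted p under 0.05 in edgeR. The number of members higher at an unadjusted p under 0.05 ran from 3 to 6 and the number lower from 0 to 4, the highest of both without Sgo1-/+ replicate 3. The number lower was 0 without Sgo1-/+ replicate 2, 4 or 5.

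DESeq2 called 1 member where edgeR called 0. The number of members higher at an unadjusted p under 0.05 was 7 on total counts alone and 2 with the distal markers as a covariate, against 4. The number lower, 1, became 0 on total counts alone and with the absorptive markers, 2 in DESeq2, limma-voom and with the distal markers, 3 with the mitochondrial-like share and 5 without a filter. The share of all genes at that p is not given for these settings or for left-out libraries. A change in these counts therefore cannot be assigned to the members. The median log2 change was 0.37 on total counts alone, which is 0.06 above all genes. It turned negative with the mitochondrial-like share (-0.09) and without a filter (-0.0082), settings for which no median of all genes is given. St6galnac4 was at 1.11 and past the threshold in DESeq2, and at 0.74 within the libraries with the suffix. With the replicate number as a block 2 members were lower and 1644 genes had an unadjusted p under 0.05. Deviations of log2 CPM from the genotype mean of each gene correlated at -0.30 to 0.45 between same-numbered libraries. By these deviations no Sgo1-/+ library correlated best with the wild type library of its own number, so the numbers were not taken as pairs. DESeq2 gave no adjusted p for 39 genes. The 21 untested members were under the count filter.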
